A study of Mus musculus with 56 samples.

Results

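The hepatic circadian clock was described here through 10 of its genes, chosen by name, in the liver of all 56 mice of the series. The 10 were the activators Arntl (also called Bmal1), Clock and Npas2, the repressors Per1, Per2 and Per3, the nuclear receptors Nr1d1 and Nr1d2 (the REV-ERBs), the output factor Dbp and the repressor Ciart (Chrono). They were matched to the gene identifiers of the files through GENCODE vM21 on GRCm38, and all 10 were among the 14314 genes, of 45513 listed, that had enough reads to be tested.

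Liver RNA of female APOE*3Leiden.CETP mice was sequenced, with 7 groups of 8 mice. All mice carried the human APOE*3Leiden and CETP transgenes, which give a human-like lipoprotein profile, and were not leukemic. Their stated age was 9 to 14 weeks. They lived in a cycle of 12 h light and dark and ate a Western-type diet with 15% cacao butter and 0.15% cholesterol. Control mice (Ctrl) were gavaged with the vehicle, 5% carboxymethyl cellulose. Imatinib was given at 150 mg/kg in each of 2 gavages a day (Ima_150), nilotinib at 10 or 30 mg/kg (Nilo_10, Nilo_30) and ponatinib at 3 or 10 mg/kg (Pona_3, Pona_10) once a day with a further gavage of vehicle; these 3 drugs inhibit tyrosine kinases, among them BCR-ABL1. A last group drank water with 0.12 to 0.20% L-NAME, an inhibitor of nitric oxide synthase, and received vehicle gavages (L-NAME). For the mice on the kinase inhibitors and their controls, the study's methods give 3 weeks of the diet and then 16 weeks of treatment. Their livers were thus taken at an older age than the stated 9 to 14 weeks. The hour at which each mouse died, relative to lights on, is not given in the sources used here, so the state of the clock in each liver is known only from its transcripts.

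The clock of mammalian cells is a transcriptional loop. A dimer of ARNTL with CLOCK or NPAS2 binds E-boxes and activates the Per, Nr1d, Dbp and Ciart genes; PER and CIART proteins then repress the dimer, while NR1D1 and NR1D2 repress Arntl, Clock and Npas2 through ROR response elements. DBP and its relatives TEF and HLF carry the rhythm to liver genes through D-boxes. In mouse liver the transcripts of Arntl and Npas2 therefore peak near the time at which those of Dbp and Per3 are lowest, and a single liver shows only the time of day, or the phase, at which it was taken.

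Promoters of the members were taken from RefSeq as the 250 bases before the start site nearest to the annotated 5′ end of the gene. A sequence was found for 9 of the 10 members. The RefSeq start sites used here held none for Per2, so its promoter was not read. The windows of Per1 and Npas2 lay inside the annotated genes, which start further upstream, that of Per1 at 69095217. The first 3 below are shown because they carry a match to a clock motif, in capitals, and Arntl because its level defines the opposite limb.
Ciart, chr3:95882229-95882478 (GRCm38, minus strand): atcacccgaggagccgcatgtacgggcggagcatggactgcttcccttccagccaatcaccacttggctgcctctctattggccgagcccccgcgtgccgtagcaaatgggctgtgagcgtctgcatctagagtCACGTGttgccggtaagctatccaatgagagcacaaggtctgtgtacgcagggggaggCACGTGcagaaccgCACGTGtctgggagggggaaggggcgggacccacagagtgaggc
Per1, chr11:69098699-69098948 (GRCm38, plus strand): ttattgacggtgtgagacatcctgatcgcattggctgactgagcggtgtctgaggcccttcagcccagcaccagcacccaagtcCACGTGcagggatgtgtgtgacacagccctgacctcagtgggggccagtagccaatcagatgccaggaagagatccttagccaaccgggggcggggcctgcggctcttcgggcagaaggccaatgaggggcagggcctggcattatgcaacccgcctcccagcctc
Per3, chr4:151044666-151044915 (GRCm38, minus strand): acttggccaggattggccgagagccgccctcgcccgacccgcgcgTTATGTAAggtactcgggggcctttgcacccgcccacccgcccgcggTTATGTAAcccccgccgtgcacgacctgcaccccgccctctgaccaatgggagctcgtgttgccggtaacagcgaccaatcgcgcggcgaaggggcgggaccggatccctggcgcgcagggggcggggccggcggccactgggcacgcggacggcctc
Arntl, chr7:113207215-113207464 (GRCm38, plus strand): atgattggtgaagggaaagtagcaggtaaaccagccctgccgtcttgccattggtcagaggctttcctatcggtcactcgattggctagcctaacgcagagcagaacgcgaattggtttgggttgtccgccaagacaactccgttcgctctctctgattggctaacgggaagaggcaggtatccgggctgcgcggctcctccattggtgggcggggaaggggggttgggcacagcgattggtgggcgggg

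The capitals mark the E-box CACGTG in Ciart and Per1 and the D-box TTANGTAA in Per3, each read on both strands. Ciart held 3 E-boxes, at -116, -58 and -44 from the start site, Per1 held 1 at -166, and Per3 held 2 D-boxes, at -205 and -158. Of 32851 RefSeq promoters of the same length, 6.02% held the E-box and 2.06% the D-box. Nr1d1 held 1 match to CACGTT, at -28, which 3.85% of promoters held. The RORE cores TAGGTCA (2.23% of promoters) and TGGGTCA (3.24%) and the CRE TGACGTCA (1.55%) matched none of the 9, and Arntl, Clock, Npas2, Nr1d2 and Dbp held none of the 6 motifs in this window.

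Reads assigned to genes numbered 5342379 to 17996732 in 55 libraries and 97473341 in L-NAME mouse 10. Reads outside genes made up 7.55 to 8.67% of those assigned, ambiguous or outside genes in Ctrl, 9.14 to 11.0% in Nilo_10, 9.41 to 12.7% in Nilo_30, 8.89 to 15.2% in Pona_10 and 8.81 to 16.8% in L-NAME, so that these 4 groups lay wholly above the controls, while Ima_150 (8.16 to 14.1%) and Pona_3 (7.78 to 9.75%) overlapped them. The 6 hepatocyte markers found summed to 67850 to 140900 counts per 1000000 reads on genes (CPM) and the 6 lymphocyte markers to 2.47 to 35.8 CPM, so that all libraries had the transcripts of liver. No member overlapped another gene by more than 0.439% of its exon bases except Nr1d1, which shared 8.55% with Thra, and Dbp, which shared 18.0% with Sphk2; whether counting used strand is not stated, so reads there cannot be told apart.

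Per kilobase of exon, Dbp and Nr1d1 were the most abundant members, with means over the 56 mice of 66.8 and 62.0 CPM per kilobase, followed by Nr1d2 at 18.0. The Period genes lay close together, Per1 at 7.69, Per2 at 7.06 and Per3 at 6.15 CPM per kilobase, and Ciart was at 5.15. The activators were lowest, Clock at 1.40, Arntl at 1.15 and Npas2 at 0.847 CPM per kilobase. Arntl and Ciart had no read in 6 mice each and Npas2 in 18; at the depth of these libraries a count of 0 allows up to 0.388 to 0.430 CPM of Arntl, 0.384 to 0.416 of Ciart and 0.190 to 0.562 of Npas2, for counting error only.

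Mice of one group differed greatly in their clock genes. In bulk liver, fewer cells of a type and less RNA per cell cannot be told apart. Within groups the SD of log2 CPM was 2.49 for Ciart, and none of the 14314 genes had a larger one. It was 2.29 for Arntl, 2.26 for Npas2, 1.85 for Dbp and 1.60 for Per3, against a median of 0.50 over all genes tested. The SD of Per2 was 1.25 and that of Per1 slightly smaller. Clock (0.69), Nr1d2 (0.43) and Nr1d1 (0.41) spread far less. Of the variance of Arntl between mice 15.3% lay between groups, and of that of the other members 7.71 to 25.8%, against a median of 16.8% over all genes tested.

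In control mice Arntl ranged from 0.616 to 30.5 CPM with a median of 3.70, and Dbp from 3.64 to 340 CPM with a median of 163. With nilotinib 30 mg/kg Arntl ranged from 0 to 33.0 CPM (median 20.3) and Dbp from 2.85 to 298 CPM (median 21.0). The group thus had 6 of its 8 mice at or below 39.3 CPM of Dbp, but its values covered nearly the whole control range. With ponatinib 3 mg/kg Arntl lay between 0 and 10.2 CPM (median 0.904) and Dbp between 131 and 327 CPM (median 264). In this group no mouse had as little Dbp as the 3 lowest controls, and 4 mice had less Arntl than any control.

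Values in the other 4 groups also spread widely. Arntl ranged from 0.682 to 14.3 CPM with imatinib, 0 to 39.0 with nilotinib 10 mg/kg, 0 to 39.9 with ponatinib 10 mg/kg and 0 to 10.7 with L-NAME. Dbp ranged from 29.1 to 354 CPM with imatinib, 6.02 to 357 with nilotinib 10 mg/kg, 4.36 to 540 with ponatinib 10 mg/kg and 48.7 to 401 with L-NAME. For no member did any treated group lie wholly above or wholly below the controls, in 60 pairs of groups.

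**Figure D1:**
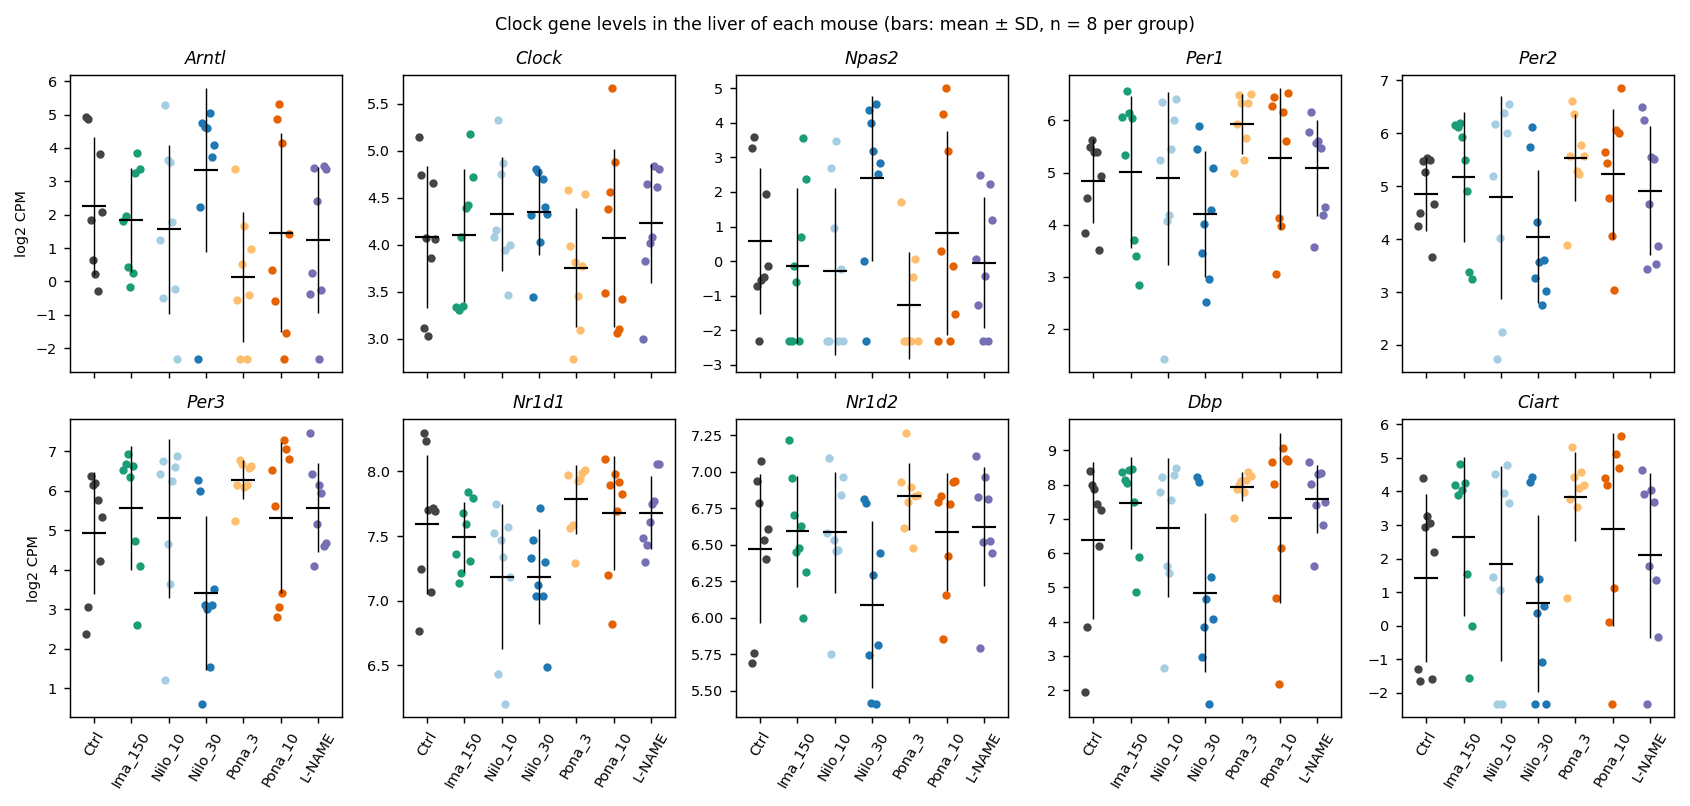
Level of each clock gene in each of the 56 mice (y axis, log2 CPM; x axis, the 7 groups), with the group mean and SD as bars (n = 8). Arntl, Npas2, Dbp and Ciart spread over several log2 units within most groups, whereas Nr1d1 and Nr1d2 stay within narrow bands, and the values of every treated group overlap those of the controls.

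To ask whether the clock differed between treated and control mice, each group was compared with control by edgeR's quasi-likelihood test with Benjamini-Hochberg adjustment over all 14314 genes, in a fit of all 56 mice. No member was called at an adjusted p below 0.05 in any of the 6 comparisons. The same test called 10.3% of all genes with imatinib, 1.41% with nilotinib 10 mg/kg, 5.77% with nilotinib 30 mg/kg, 0.0419% with ponatinib 3 mg/kg, 13.1% with ponatinib 10 mg/kg and 11.8% with L-NAME. DESeq2 called no member in these comparisons either, but it gave no adjusted p, and so could make no call, for Arntl and Npas2 with nilotinib 10 mg/kg, Npas2 with nilotinib 30 mg/kg, and Arntl, Clock, Npas2 and Ciart with ponatinib 3 mg/kg. Limma voom with quality weights called 3 members, all with nilotinib 30 mg/kg, where it called 16.4% of all genes. At an unadjusted p below 0.05, 0 members passed with imatinib (23.5% of all genes), 1 with nilotinib 10 mg/kg (14.2%), 1 with nilotinib 30 mg/kg (18.7%), 3 with ponatinib 3 mg/kg (9.96%), 0 with ponatinib 10 mg/kg (25.8%) and 0 with L-NAME (24.2%). At an unadjusted p below 0.01, the cut-off of the study's methods, none passed, against 12.9%, 5.97%, 9.35%, 3.14%, 15% and 14% of all genes in the same order. All 6 comparisons share the 8 control mice. With the share of reads outside genes as a covariate no member was called either, but the log2 differences moved. That of Npas2 with ponatinib 10 mg/kg went from 1.18 to 2.07, that of Arntl there from 0.11 to 0.76 and that of Per1 with L-NAME from 0.31 to -0.10; the part of this share in the differences was not tested further.

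The intervals were wide for the members that spread most between mice. For Arntl, the activator without which the loop stops, the log2 difference with ponatinib 3 mg/kg was -2.29 (95% interval -4.25 to -0.34, adjusted p = 0.384), with means of 2.15 ± 3.40 as compared to 10.4 ± 12.6 CPM in control (SD, n = 8 each). Without Pona_3 mouse 7, the one with 10.2 CPM, that difference was -3.41, and without Ctrl mouse 1 it was -1.82. With nilotinib 30 mg/kg it was 0.76 (-1.03 to 2.54, adjusted p = 0.737), and with the other 4 treatments between -1.15 and 0.11.

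Npas2, the paralog of Clock, had the lowest counts of the list. It was at 0 to 11.8 CPM in control (median 0.613) and at 0 to 3.04 CPM with ponatinib 3 mg/kg, where the median mouse had no read. The log2 difference was -2.62 (-5.07 to -0.18, adjusted p = 0.455), and it was -4.12 without Pona_3 mouse 7 and -2.02 without Ctrl mouse 12. Under nilotinib 30 mg/kg Npas2 ranged from 0 to 23.1 CPM (median 7.92) and the log2 difference was 1.58 (-0.60 to 3.76, adjusted p = 0.486). Clock, the main partner of ARNTL, was between 6.71 and 50.5 CPM in all mice, and its log2 differences from control were -0.38 to 0.19 with adjusted p from 0.763 upward.

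The Period genes had their highest log2 differences from control with ponatinib 3 mg/kg. Per1 ranged from 31.7 to 90.6 CPM there as compared to 11.2 to 48.9 CPM in control, with 6 of 8 mice above every control. Its log2 difference was 1.03 (0.07 to 1.99, adjusted p = 0.456). Per2 was at 14.6 to 96.7 CPM as compared to 12.4 to 46.3 CPM in control, a log2 difference of 0.73 (-0.29 to 1.76, adjusted p = 0.682), and Per3 at 37.3 to 109 CPM as compared to 4.94 to 83.1 CPM, a difference of 0.89 (-0.36 to 2.14, adjusted p = 0.683). With nilotinib 30 mg/kg the medians of Per1, Per2 and Per3 were 17.6, 11.8 and 8.45 CPM, below those of control at 36.1, 31.9 and 46.8 CPM. None of these differences passed the test.

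Nr1d1 was measured most tightly. It ranged from 109 to 315 CPM in control (median 208), from 73.5 to 215 CPM with nilotinib 10 mg/kg (median 170) and from 89.6 to 211 CPM with nilotinib 30 mg/kg (median 148). The log2 difference from control was -0.41 (-0.78 to -0.04, adjusted p = 0.288) at the lower dose and -0.45 (-0.82 to -0.08, adjusted p = 0.152) at the higher. Both nilotinib groups lay mostly in the lower part of the control range, and the difference between the doses was -0.04 (-0.41 to 0.33, adjusted p = 1.00). Nr1d2 was at 51.5 to 135 CPM in control and 42.4 to 113 CPM with nilotinib 30 mg/kg, a log2 difference of -0.36 (-0.75 to 0.04, adjusted p = 0.338).

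For Dbp the log2 difference was 0.71 with ponatinib 3 mg/kg (-0.65 to 2.07, adjusted p = 0.809) and -0.89 with nilotinib 30 mg/kg (-2.26 to 0.48, adjusted p = 0.551). The latter was -1.56 without Nilo_30 mouse 4 and -0.62 without Ctrl mouse 22. For Ciart it was 1.55 with ponatinib 3 mg/kg (-0.27 to 3.36, adjusted p = 0.598) and 1.60 with ponatinib 10 mg/kg (-0.22 to 3.41, adjusted p = 0.268). Ciart ranged from 0.121 to 20.9 CPM in control, 1.59 to 40.1 CPM at the lower and 0 to 49.9 CPM at the higher dose of ponatinib. Differences of 2-fold or more in either direction lie within several of these intervals and were not detectable at this spread.

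**Figure D2:**
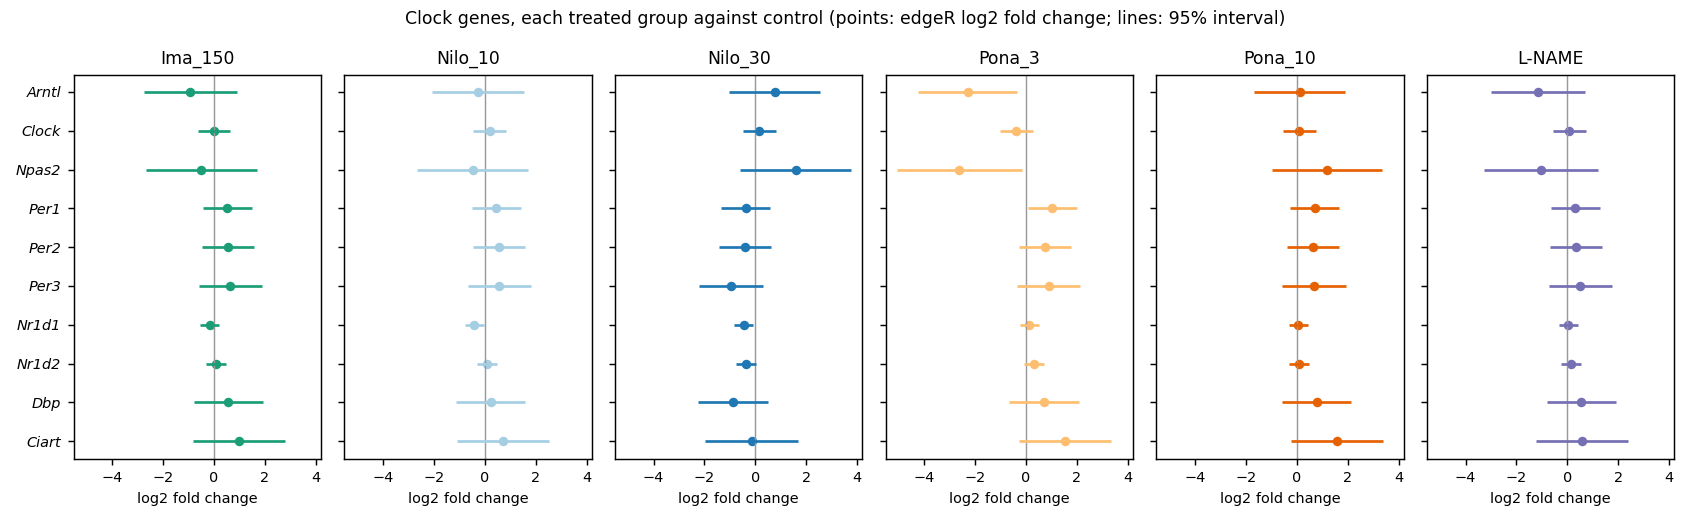
Log2 fold change of each clock gene (x axis) in each treated group against control, as points with 95% intervals from edgeR. Of the 60 intervals 5 leave out 0, those of Nr1d1 with both doses of nilotinib and those of Arntl, Npas2 and Per1 with ponatinib 3 mg/kg, and the intervals of Arntl, Npas2 and Ciart are the widest.

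An exact two-sided permutation test of mean log2 CPM over the mice, 60 tests in all, gave a lowest p of 0.00668, for Per1 with ponatinib 3 mg/kg, with 8 of 8 mice above the control mean. The smallest p this design allows is 0.000155. Of the 60 exact tests 3 had a p below 0.05, all with ponatinib 3 mg/kg, for Per1, Per3 (exact p = 0.0255) and Ciart (exact p = 0.0347). Thus 3 of the 10 members passed with ponatinib 3 mg/kg, where the same test passed 14.2% of all genes. In the other treated groups 0 members passed, against 16.3 to 29.5% of all genes. The 60 tests are not independent, since the members vary together and every comparison shares the controls. Unlike the fit of counts, this test weighs each mouse equally on the log scale.

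The remaining contrasts called no member either. Between the doses of ponatinib (1.39% of all genes called) 1 member had an unadjusted p below 0.01 (5.78% of all genes) and 2 below 0.05 (14.4%). Npas2 was higher at 10 than at 3 mg/kg by 3.81 on the log2 scale (1.29 to 6.32, unadjusted p = 0.00358, adjusted p = 0.109) and Arntl by 2.41 (0.45 to 4.37, adjusted p = 0.221). DESeq2 gave neither an adjusted p. At 10 mg/kg Npas2 was at 19.0, 32.0 and 8.92 CPM in mice 14, 18 and 24, and at most 1.02 CPM in the rest. The same mice were highest in Arntl. Medians at 10 and 3 mg/kg were 0.866 and 0 CPM for Npas2, and 1.78 and 0.904 CPM for Arntl. Limma voom gave log2 differences of 2.3 (adjusted p = 0.523) and 1.22 (adjusted p = 0.788). Between the doses of nilotinib (0% of all genes called) 0 members had an unadjusted p below 0.01 (1.32% of all genes) and 2 below 0.05 (5.67%), Nr1d2 and Per3. Per3 was lower at 30 mg/kg, with a log2 difference of -1.53 (-2.81 to -0.25, adjusted p = 0.773). Between ponatinib and nilotinib at the shared dose of 10 mg/kg (2.06% of all genes called) 0 members had an unadjusted p below 0.01 (6.73% of all genes) and 1 below 0.05 (15.3%). Nr1d1 had a log2 difference of 0.46 (0.09 to 0.84, adjusted p = 0.186).

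Asked over all 7 groups at once, the test called 18.7% of all genes and no member. The members nearest to the threshold were Nr1d1 (adjusted p = 0.0579) and Npas2 (adjusted p = 0.0721); 2 members had an unadjusted p below 0.05 (30.9% of all genes) and 0 below 0.01 (19.1%). This count moved with the method. DESeq2 called 1 member, Nr1d1 (adjusted p = 0.0309), and 27% of all genes. Limma voom with quality weights called 7, all but Clock, Per2 and Ciart, and 42.7% of all genes.

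Although edgeR called no member between groups, the members moved together from mouse to mouse. Across the 56 mice, with group means subtracted, Arntl rose with Clock (Pearson's r = 0.68, Spearman's rho = 0.73) and with Npas2 (r = 0.72, rho = 0.70). It ran against Per1 (r = -0.77, rho = -0.78), Per2 (r = -0.76, rho = -0.78) and Per3 (r = -0.83, rho = -0.84). It also ran against Nr1d2 (r = -0.68, rho = -0.67), Dbp (r = -0.81, rho = -0.85) and Ciart (r = -0.82, rho = -0.83). For each of these 8 members the permutation p, from 100000 permutations within groups, was 1e-05, the smallest they can give, for both coefficients, and 1.12e-05 after Benjamini-Hochberg adjustment over 9 relations.

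Nr1d1 was the exception. Its r with Arntl was -0.17 (rho = -0.06), with a permutation p of 0.247 for r and 0.711 for rho, the same after adjustment. Its r with Dbp was 0.46 and with Nr1d2 0.33. Nr1d1 ranged 4.28-fold over the 56 mice and Dbp 189-fold.

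These relations did not rest on a few mice or on one group. Without the 2 mice farthest from the median of Arntl, r lay between 0.72 and 0.74 for the other activators and between -0.82 and -0.65 for the 6 members that ran against Arntl. Within the single groups of 8, r had the same sign in all 7 groups for 7 members. The exceptions were Nr1d2, with r = 0.11 in Pona_3, and Nr1d1, whose r ran from -0.41 to 0.31. In the control mice alone r was 0.79 with Clock, 0.90 with Npas2, -0.91 with Per3, -0.85 with Dbp and -0.40 with Nr1d1. Arntl had no marked relation to depth (r = 0.00, permutation p = 0.980) or to the share of reads outside genes (r = -0.08, permutation p = 0.613). With the summed markers of sinusoidal endothelium r was 0.33 (permutation p = 0.0234, 0.211 adjusted over 9 measures), and with those of hepatocytes 0.04; the part of cell makeup was not tested further.

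**Figure D3:**
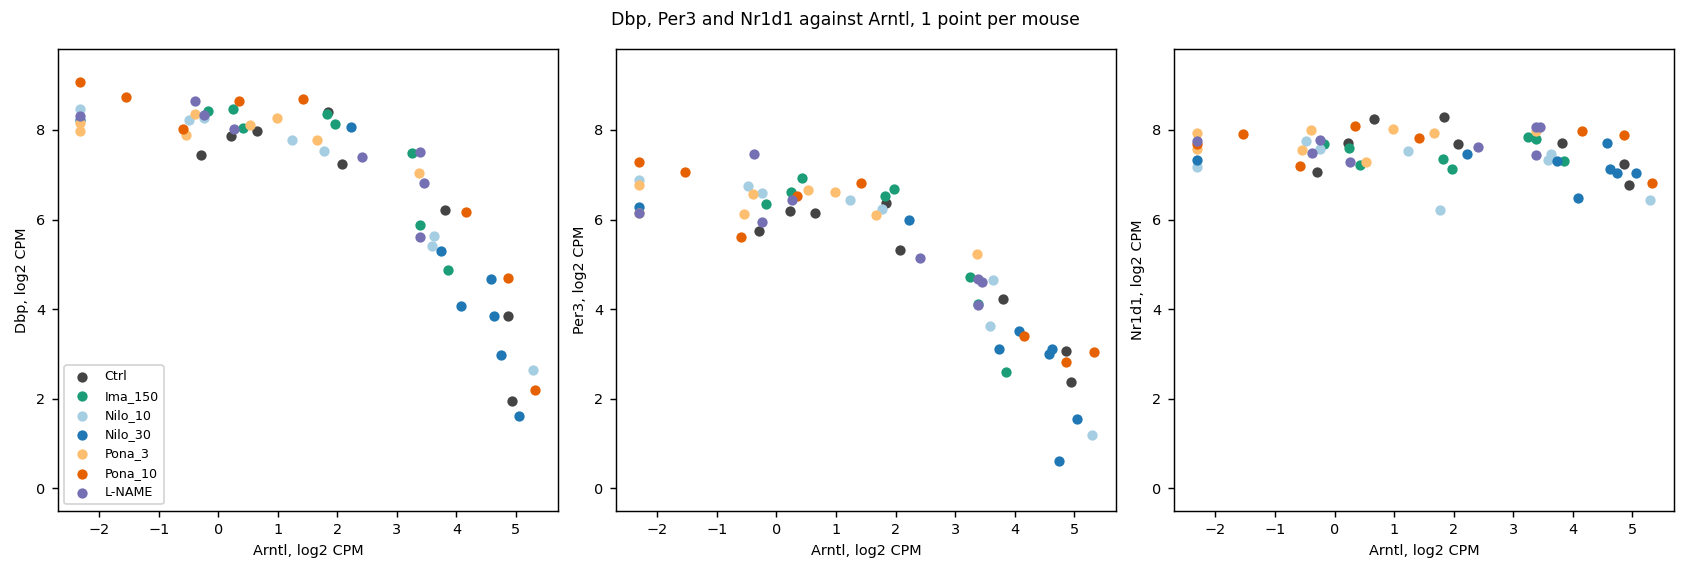
Dbp, Per3 and Nr1d1 (y axes, log2 CPM) against Arntl (x axis, log2 CPM), with 1 point per mouse coloured by group. Dbp and Per3 stay high while Arntl is low and drop steeply once it is high, with mice of all groups along the same curve, whereas Nr1d1 varies little along the whole axis.

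The log2 difference between Arntl and Dbp places each mouse between these extremes. It ran from -11.4 to 3.44 over the 56 mice, and the largest step between neighbouring mice was 1.25. Whether the livers form clusters was not tested, and low counts of Arntl limit the values at the lower end. Its median was -5.87 in Ctrl, -6.35 in Ima_150, -6.15 in Nilo_10, -0.04 in Nilo_30, -8.0 in Pona_3, -7.78 in Pona_10 and -6.37 in L-NAME. Within groups its SD was 2.23 to 5.31. Per kilobase of exon, the level of Arntl exceeded that of Dbp in 5 mice, of which 2 were in Nilo_30 and 1 each in Ctrl, Nilo_10 and Pona_10.

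The first principal component of the 10 members, scaled and with group means subtracted, held 74.1% of their variance. Arntl, Clock and Npas2 had loadings of 0.30 to 0.33 on it, Per1, Per2, Per3, Nr1d2, Dbp and Ciart of -0.36 to -0.31, and Nr1d1 of -0.11. The second component held 10.8% and was nearly Nr1d1 alone, with a loading of 0.90. Among pairs, the closest were Per3 with Dbp (r = 0.93), Per3 with Ciart (r = 0.91) and Per2 with Ciart (r = 0.89).

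**Figure D4:**
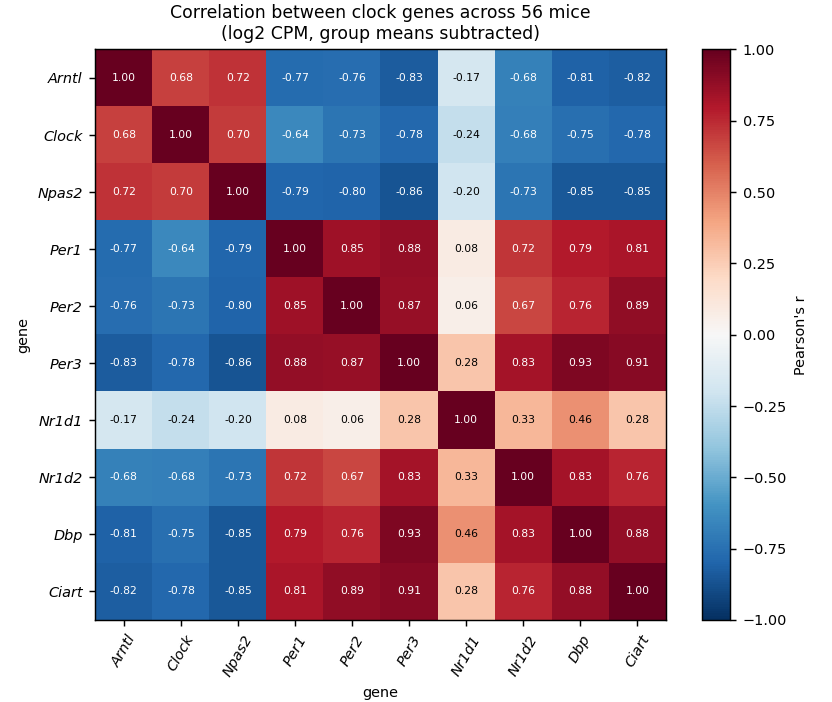
Pearson's r between each pair of clock genes across the 56 mice, on log2 CPM with group means subtracted. The activators form a positive block (r from 0.68 to 0.72), and the Period genes, Nr1d2, Dbp and Ciart form another (0.67 to 0.93). These blocks are negatively related to each other. The row of Nr1d1 is the palest, with r from -0.24 (Clock) to 0.46 (Dbp).

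Genes next to the members in the loop were counted as a list of 16 clock partners, of which 15 were tested. With nilotinib 30 mg/kg 2 of the 15 fell and none rose as compared to control (5.77% of all genes called). Bhlhe40 (Dec1), a repressor of E-box transcription, was at 75.0 ± 26.8 as compared to 171 ± 73.0 CPM in control, and fell by 1.19 on the log2 scale (SE 0.24, edgeR adjusted p = 0.00148). Cry2, a cryptochrome that represses together with the PER proteins, was at 31.1 ± 3.57 as compared to 48.8 ± 17.4 CPM and fell by 0.65 (SE 0.16, adjusted p = 0.010). Bhlhe40 was also lower with ponatinib at 10 than at 3 mg/kg, 122 ± 40.2 as compared to 222 ± 67.4 CPM, the one partner called there (log2 difference -0.86, SE 0.24, adjusted p = 0.0459). No partner was called in the 5 other comparisons with control, where the numbers with an unadjusted p below 0.05 were 1 with imatinib (23.5% of all genes), 1 with nilotinib 10 mg/kg (14.2%), 1 with ponatinib 3 mg/kg (9.96%), 2 with ponatinib 10 mg/kg (25.8%) and 2 with L-NAME (24.2%). The largest log2 differences of uncalled partners were -1.69 for Bhlhe41 (Dec2) with nilotinib 30 mg/kg (adjusted p = 0.206), -0.93 for Nfil3 with ponatinib 3 mg/kg (adjusted p = 0.436), -0.89 for Cry1 with L-NAME (adjusted p = 0.216), -0.87 for Cry1 with imatinib (adjusted p = 0.239), -0.77 for Bhlhe41 with ponatinib 10 mg/kg (adjusted p = 0.561) and -0.48 for Bhlhe40 with nilotinib 10 mg/kg (adjusted p = 0.337).

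From mouse to mouse, 10 of the 15 partners were related to Arntl at an adjusted permutation p below 0.05, over the 58 genes of 5 lists. Among them Tef (r = -0.85), Hlf (r = -0.74), Bhlhe40 (r = -0.73), Bhlhe41 (r = -0.72) and Cry2 (r = -0.45) ran against it, and Nfil3, which represses D-box genes, ran with it (r = 0.73), as did Rora (r = 0.36) and Cry1 (r = 0.35). Over all genes tested the median r with Arntl was 0.01, and 95% of genes lay between -0.47 and 0.48.

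Most clock-driven genes of the liver in a further list followed the same axis. Of 16 such genes, all tested, 11 ran against Arntl and 4 with it at an adjusted permutation p below 0.05. Like the other lists, this one was chosen with earlier results of these data known, so its counts are not an independent test. Cyp7a1, the rate-limiting enzyme of bile acid synthesis, had r = -0.72, Alas1, which starts heme synthesis, r = -0.73, Por, the electron donor of the cytochromes P450, r = -0.77, and Gys2, the liver glycogen synthase, r = -0.82. Insig2, which retains the SREBP precursor in the endoplasmic reticulum, ran with Arntl (r = 0.82). As compared to control, 1 of the 16 was called in each of 4 comparisons. It was Mapk15 each time, a kinase whose r with Arntl was 0.32. Its log2 differences were 1.05 with imatinib (10.3% of all genes called), 1.44 with nilotinib 30 mg/kg (5.77%), 1.53 with ponatinib 10 mg/kg (13.1%) and 1.15 with L-NAME (11.8%). No gene of the list was called with the other 2 treatments. The largest of the uncalled with nilotinib 30 mg/kg were Wee1 (-1.72, adjusted p = 0.168), Usp2 (-1.55, adjusted p = 0.335) and Cyp7a1 (-1.23, adjusted p = 0.107), and with ponatinib 3 mg/kg Lonrf3 (-1.16, adjusted p = 0.806) and Usp2 (0.90, adjusted p = 0.787).

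Genes that respond to glucocorticoids, feeding or temperature, which can set the liver clock, were counted as well. The signals themselves were not measured. Of 8 glucocorticoid-responsive genes 1 ran with Arntl and 3 against it. Fkbp5, the usual reporter of glucocorticoid action, had r = -0.59, Mt1 r = -0.475 and Errfi1 r = -0.34, whereas Zbtb16 ran with Arntl (r = 0.46). Zbtb16 and Errfi1 lay within the central range given above for all genes (-0.47 to 0.48). Tsc22d3 (r = -0.10), Sgk1 (r = 0.22) and Mt2 (r = -0.25) were not related to Arntl at an adjusted permutation p below 0.05. The list thus had no single direction. Tat, which degrades tyrosine and is induced by glucocorticoids, was lower than in control (1021 ± 266 CPM) with imatinib (663 ± 167), nilotinib 10 mg/kg (615 ± 145), nilotinib 30 mg/kg (560 ± 144) and L-NAME (593 ± 116), with edgeR adjusted p of 0.0183, 0.0241, 0.00196 and 0.00222, while its r with Arntl was -0.02. The metallothioneins Mt1 and Mt2 were called higher with ponatinib 10 mg/kg (log2 differences of 1.94 and 1.83), and Mt1 with L-NAME (1.78). No gene of this list was called with ponatinib 3 mg/kg, where 0.0419% of all genes were called. In the comparisons where genes of this list were called, 1.41 to 13.1% of all genes were called.

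Of 12 genes that follow feeding and fasting 5 ran with Arntl and 3 against it. Pdk4, which shuts down glucose oxidation in fasting, had r = 0.77 and G6pc, the last step of glucose output, r = 0.65. Those against it were Cpt1a, which carries fatty acids into mitochondria for oxidation (r = -0.49), Angptl4, an inhibitor of lipoprotein lipase (r = -0.38), and Pck1, an enzyme of gluconeogenesis (r = -0.37), all 3 also induced by fasting. Called as compared to control were Angptl4 (log2 difference 0.68) and Srebf1 (-0.57) with imatinib, Acly (-1.30) with nilotinib 10 mg/kg, Acly (-1.15) and Cpt1a (-0.63) with nilotinib 30 mg/kg, Pnpla3 (1.95) with ponatinib 10 mg/kg, and Fasn (-1.42) and Acly (-1.71) with L-NAME. Of 7 temperature-sensitive genes tested only Hsp90aa1 was related to Arntl (r = 0.53). Cirbp, a cold-inducible RNA-binding protein, was called higher with imatinib (log2 difference 0.50), ponatinib 10 mg/kg (0.83) and L-NAME (0.73), with r of -0.03 to Arntl. Hsph1 (-0.86) and Hsp90aa1 (-1.03) were called lower with L-NAME. In the comparisons where genes of these 2 lists were called, 1.41 to 13.1% of all genes were called.

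The genes outside the list whose levels were most like those of a member across the 56 mice were ranked by r, with no test. Most like Arntl were Chka (r = 0.89), Cldn1 (0.86), St5 (0.86), Nedd4l (0.85), Clpx (0.85), Pnrc1 (0.83), Tars (0.82) and Insig2 (0.82). Chka ranged from 14.2 to 240 CPM and Clpx from 42.3 to 507 CPM. Most opposed to Arntl were Tef (r = -0.85), Slc5a6 (-0.82), Gys2 (-0.82), Usp2 (-0.81), Mtss1 (-0.80), Pcsk4 (-0.80), Coq10b (-0.78) and Upp2 (-0.78).

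Most like Dbp was its relative Tef, with r = 0.97 and 38.9 to 499 CPM, followed by Slc5a6, Usp2, Pcsk4, Por, Cyp2a5, Gys2 and Gstt2 (r = 0.81 to 0.85). Most like Per2 were Usp2, a deubiquitinase (r = 0.91), Alas1 (r = 0.90, 65.4 to 1729 CPM), Mtss1, Coq10b, Fam102a, Marveld1, Tef and Cyp2a4 (r = 0.82 to 0.87). Cyp2a4 and Cyp2a5 are near-identical genes, and reads may be split between them.

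To see how far this axis reached, the difference between Arntl and Dbp was added as a covariate to the fit of all 56 mice, a choice made after the counts were seen. Of 14304 genes other than the members, 1746 (12.2%) were related to it within groups at an edgeR adjusted p below 0.05, 913 rising and 833 falling with it. With nilotinib 30 mg/kg, the group with the highest median difference, the genes called against control went from 826 to 1349, of which 805 were shared. With ponatinib 3 mg/kg they went from 6 to 0. With imatinib they went from 1471 to 1375 (1301 shared), with nilotinib 10 mg/kg from 202 to 264 (199 shared), with ponatinib 10 mg/kg from 1877 to 1847 (1742 shared) and with L-NAME from 1688 to 1491 (1410 shared).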

How the data were processed

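Liver mRNA of 56 mice was sequenced on an Illumina NextSeq instrument after poly(A) selection. Per the labels and the submitters' processing notes, the authors aligned reads to GRCm38 with TopHat2 2.0.14 and Bowtie2 2.1.0, used SAMtools 0.1.18, and deposited raw counts per Ensembl gene from HTSeq 0.6.1p1; whether counting used strand is not stated. The 5 summary rows of each file (reads outside genes, ambiguous, not unique and so on) were left out of library sizes and tests. Multi-mapped reads were not counted. Gene names came from GENCODE vM21, which named 44671 of 45513 identifiers. The members and lists were chosen with earlier results of these data known.

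The counts were filtered with edgeR 4.0.16 (filterByExpr), scaled by TMM and tested with its quasi-likelihood test in 1 fit of the 7 groups, with Benjamini-Hochberg adjustment over 14314 genes; the procedure was tested on simulated data. The study's own cut-off was an unadjusted p of 0.01. Log2 CPM used a prior count of 2; CPM are per 1000000 TMM-scaled reads. DESeq2 1.42.0, limma 3.58.1 (voom with quality weights), other size factors, no filter and leaving out each mouse were alternatives. Correlations used log2 CPM with group means subtracted and 100000 permutations within groups (SciPy). All members were named; genes of other lists were named where called, or where among the 4 largest changes (given in part), and a few as examples of their relation to Arntl, chosen after the values were seen; 8 genes were ranked for each likeness. Values of some list genes are not reported here. No 2 mice of a group had counts within sampling noise (chi-square per degree of freedom 10.8 or more). The labels name each sample a mouse but give no batch.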

Additional observations from a re-analysis of the deposited data

Results flagged for a closer look

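Dixon's test for the sample farthest from its group, on log2 CPM of each member in each group of 8 mice, pointed to 5 of 70 member and group pairs, where chance gives about 1 in 20. In Nilo_30, mouse 4 had no read of Arntl against a group median of 20.3 CPM, a gap of 0.616 of the group's range, with 298 CPM of Dbp, the highest of its group. In Nilo_10, mouse 19 had 2.49 CPM of Per1 against a median of 40.6 CPM (ratio 0.529), with 39.0 CPM of Arntl. In Pona_3, mouse 7 was lowest in Per3 (37.3 CPM, median 82.7, ratio 0.562), Dbp (131 CPM, median 264, ratio 0.563) and Ciart (1.59 CPM, median 17.6, ratio 0.598), and it was the highest of that group in Arntl.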

How the results depend on the processing

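No paired analysis was possible because the groups share no replicate numbers, each mouse having a number of its own. Of 288 alternative counts of called members 272 stayed at the main count, those of DESeq2 without the members to which it gave no adjusted p. The others were, for any difference among the 7 groups (0 members), 2 with no filter on low counts, 7 with limma voom, 1 with DESeq2, and 0 to 1 when 1 mouse was left out, the 1 arising without any of 11 mice (Ctrl 1 and 40, Ima_150 51, Nilo_10 9, 30 and 43, Nilo_30 37, Pona_3 7 and 23, Pona_10 8 and 18). With limma voom 3 members were called with nilotinib 30 mg/kg, Npas2 (log2 difference 2.86, adjusted p = 0.0257), Nr1d2 (-0.71, adjusted p = 0.00178) and Dbp (-2.43, adjusted p = 0.0336). At an unadjusted p below 0.01, 1 member passed between the doses of ponatinib. The cause of these shifts was not tested. With Arntl minus Dbp as a covariate the genes called were 1349 for nilotinib 30 mg/kg and 0 for ponatinib 3 mg/kg, as compared to 826 and 6. All 36 alternative values of the correlations with Arntl (other size factors, a prior count of 0.5, the share of reads outside genes adjusted for, control mice alone) kept their direction where they passed and their side of the threshold. Low counts of Arntl, Npas2 and Ciart limit the log2 values at the lower end, since 21, 32 and 13 mice had under 10 reads, and with 8 mice a group the spread between mice limits every comparison of levels.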
